A study of Mus musculus with 6 samples.

Results

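The kappa variable (Igkv) segments are the gene segments that encode the amino-terminal, antigen-binding end of the kappa light chain. They were taken as every feature of the count matrices whose symbol starts with Igkv followed by a digit and that reached 20 unique molecular identifiers (UMIs, each standing for 1 captured RNA molecule) summed over the 6 libraries. This gave 87 segments among 160 Igkv features and 31053 features in all. The other 73 Igkv features stayed under the threshold, and 44 of them had 0 UMIs. The members just inside the threshold were Igkv4-79 with 22 UMIs, Igkv1-35 with 21 and Igkv4-71 with 20. Just outside it were Igkv9-129 with 19 UMIs, Igkv8-26 with 15 and Igkv3-12-1 with 14.

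The libraries were single cell 3′ RNA-seq of splenic cells sorted as germinal center (GC) B-cells 8 days after immunization with sheep red blood cells. There were 3 libraries of the genotype Smc3 wt/wt and 3 of Smc3 wt/-, and every mouse carried Cγ1-Cre, so the controls carried the recombinase too. Cγ1-Cre is driven from the Ighg1 locus and recombines in B-cells that transcribe it, mostly those in or past the GC reaction, and it removes exon 4 of 1 Smc3 copy in the Smc3 wt/- cells. Smc3 is a core subunit of cohesin, the ring complex that extrudes chromatin loops. Age and sex of the mice were not given in the sources used here.

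Each B-cell makes its light chain by joining 1 Igkv segment to 1 of the Igkj segments, and the joined exon is spliced to the constant exon Igkc. A cell that has made a productive kappa chain normally stops rearranging, so its kappa mRNA carries a single segment. The segments lie in both orientations along a long stretch of the genome, and a segment in the opposite orientation to Igkj is joined by inversion in place of deletion. In the GC, the joined segment is also mutated at a high rate, and plasma cells carry far more light chain mRNA than other B-cells. A 3′ library reads mainly the far end of a transcript, so UMIs over the V segment are few beside those over Igkc.

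Of the 87 members, 83 were annotated as V genes and 4 as V pseudogenes (Igkv9-119, Igkv4-73, Igkv5-40-1 and Igkv3-11). They fell into 18 families by the number after Igkv, with 32 segments on the plus and 55 on the minus strand of chromosome 6. Together they held 31997 UMIs, and the 73 Igkv features under the threshold held 162. Of these members, 23 had under 100 UMIs, 44 had from 100 to under 500, 12 had from 500 to under 1000 and 8 had 1000 or more. In all, 49 members had UMIs in all 6 libraries, 20 in 5, 7 in 4, 6 in 3, 4 in 2 and 1, Igkv4-90, in a single library. The 5 Igkj features had 0 UMIs, so the joined J segment could not be read.

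The libraries were uneven, and 86.6% of the member UMIs came from Smc3 wt/- replicate 2. That library held 27757 Igkv UMIs over all barcodes, against 423 to 1326 in the other 5, and 51.9% of its UMIs were from immunoglobulin genes against 2.37% to 3.90%. Total UMIs per library were between 5223325 and 35354257, with the fewest in Smc3 wt/wt replicate 1. After filtering and removal of 721 likely doublets, 20847 of 22939 barcodes were kept. Pairs of libraries shared 4 to 43 barcodes, or 0.315% to 0.946% of the smaller library. Cells were clustered without immunoglobulin genes and named from marker genes, which gave 660, 3278 and 2926 GC B-like cells in Smc3 wt/wt, against 1683, 365 and 3059 in Smc3 wt/-. Plasma-lineage cells numbered 34, 68 and 77 in Smc3 wt/wt, against 59, 1744 and 83 in Smc3 wt/-, so Smc3 wt/- replicate 2 went against the sort label by holding more plasma-lineage than GC B-like cells. It also held 726 T cell-like or myeloid-like cells, against 84 to 114 in each of the others. Smc3 itself had 154.7 to 176.6 CPM (UMIs scaled to a common library total) in GC B-like cells of Smc3 wt/wt and 133.2 to 184.0 CPM in those of Smc3 wt/-. These ranges overlapped, with a log2 fold change of -0.091 and an SE of 0.148. The paper reports reduced Smc3 expression in its lymphomas. A 3′ tag lies outside the deleted exon, so RNA from the deleted copy can still be counted. Whether the deletion lowered Smc3 RNA in these cells is not resolved here. Because the libraries were uneven, values are given per library, and differences between the genotypes also without Smc3 wt/- replicate 2. A further 3813 cells in 3 clusters stayed unnamed and enter only the values over all kept cells. The largest of these clusters, 3699 cells led by haemoglobin genes, had the B-cell gene Cd79a at 2545 CPM of UMIs outside immunoglobulin genes, within the 758.5 to 3265 CPM of the GC B-like and naive or memory B-like clusters. Unnamed cells held 472 of the 4007 Igkv UMIs of the 5 libraries other than Smc3 wt/- replicate 2.

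Cells were assigned to a segment where they had at least 3 Igkv UMIs and over 50% of them from 1 segment. The 10 members with the most assigned cells are shown first, because their values recur in what follows. The sequences are the last 66 bases of each germline transcript in GENCODE (GRCm38, the build mm10 of the files), 5′ to 3′. The capitals run from the codon of the conserved cysteine that opens the third complementarity-determining region to the germline end. The coordinates are those of the whole annotated segment.

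Igkv10-96 (chr6:68631963-68632442, minus strand): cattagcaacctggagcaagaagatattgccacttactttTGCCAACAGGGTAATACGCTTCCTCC
Igkv12-46 (chr6:69764523-69765022, minus strand): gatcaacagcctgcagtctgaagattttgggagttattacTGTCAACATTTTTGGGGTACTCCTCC
Igkv6-15 (chr6:70406469-70406992, minus strand): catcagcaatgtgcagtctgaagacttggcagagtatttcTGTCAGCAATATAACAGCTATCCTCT
Igkv14-111 (chr6:68256389-68256869, plus strand): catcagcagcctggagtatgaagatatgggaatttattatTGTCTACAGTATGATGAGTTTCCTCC
Igkv1-110 (chr6:68270485-68271267, plus strand): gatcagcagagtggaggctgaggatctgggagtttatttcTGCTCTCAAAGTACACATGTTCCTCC
Igkv12-44 (chr6:69814631-69815154, minus strand): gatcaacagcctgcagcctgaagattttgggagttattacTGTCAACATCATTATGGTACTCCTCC
Igkv6-23 (chr6:70260409-70260955, minus strand): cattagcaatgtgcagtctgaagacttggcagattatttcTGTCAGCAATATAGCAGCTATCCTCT
Igkv1-135 (chr6:67609713-67610508, plus strand): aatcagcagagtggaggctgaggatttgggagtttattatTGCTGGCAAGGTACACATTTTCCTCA
Igkv8-30 (chr6:70117061-70117620, minus strand): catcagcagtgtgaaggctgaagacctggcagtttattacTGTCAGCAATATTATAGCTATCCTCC
Igkv1-117 (chr6:68121046-68121827, plus strand): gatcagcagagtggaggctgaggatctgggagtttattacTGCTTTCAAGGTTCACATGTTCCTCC

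These 10 lay at 315.6 to 3112.1 kb from Igkj1 and held 382 of the 869 assigned cells, or 44.0%. Of the 869, 731 were in Smc3 wt/- replicate 2 and 10 to 40 in each of the other libraries, so the order is mainly that of this library. Igkv10-96 had 65 assigned cells, 61 of them plasma-lineage cells of Smc3 wt/- replicate 2, Igkv12-46 had 45, Igkv6-15 had 44, Igkv14-111 had 39 and Igkv1-110 had 38. Igkv12-44 had 37, Igkv6-23 had 34, Igkv1-135 had 29, Igkv8-30 had 27 and Igkv1-117 had 24. Several are near copies of each other. Igkv1-110 and Igkv1-117 were 96.8% identical over the germline transcript and shared 177 windows of 50 bases, Igkv12-44 and Igkv12-46 were 89.3% identical, and Igkv6-15 and Igkv6-23 were 88.9% identical. Over all members, 69 shared at least 1 window of 50 bases with another Igkv feature, 14 shared over 50% of their windows, and 18 shared none. Counts of near-identical segments are thus uncertain, since a read may fit more than 1 of them and a mutated segment may fit none. Igkv14-111 shared no such window with any other segment.

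Igkv RNA was a trace of the transcriptome in GC B-like cells and was most abundant in plasma-lineage cells. In GC B-like cells it made up 0.00657%, 0.00297% and 0.00209% of all UMIs in Smc3 wt/wt, against 0.00199%, 0.0517% and 0.00211% in Smc3 wt/-. In plasma-lineage cells the shares were 0.0347%, 0.0243% and 0.0139% in Smc3 wt/wt, against 0.0132%, 0.0896% and 0.0284% in Smc3 wt/-. The plasma-lineage share was the higher of both in each of the 6 libraries. A plasma-lineage cell carried 4.15, 4.13 and 2.83 Igkv UMIs on average in Smc3 wt/wt, against 1.69, 12.8 and 3.93 in Smc3 wt/-. GC B-like cells carried 0.362, 0.229 and 0.192 in Smc3 wt/wt, against 0.134, 3.41 and 0.171 in Smc3 wt/-. Naive or memory B-like cells, which include cells from outside the GC, had 0.00323% to 0.00780% in 5 libraries and 0.0633% in Smc3 wt/- replicate 2.

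**Figure D1:**
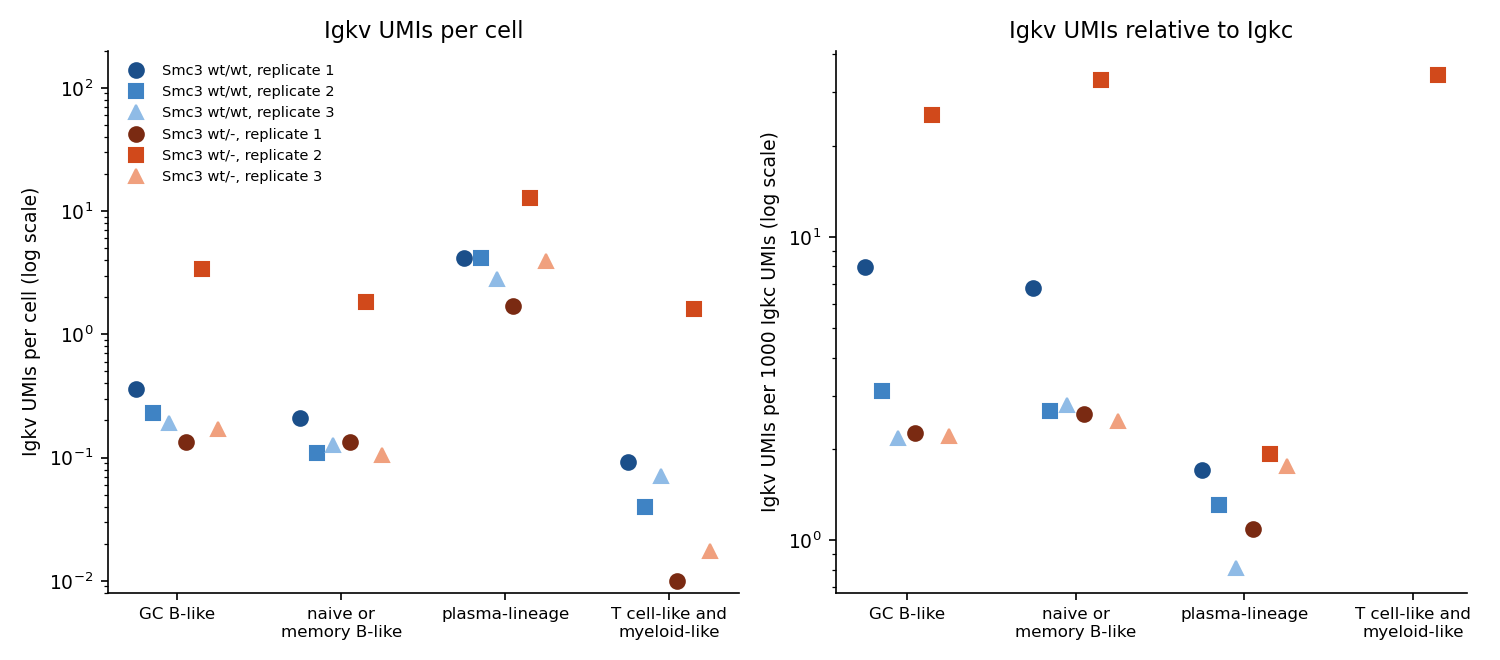
Igkv UMIs per cell (left) and per 1000 Igkc UMIs (right), both on log axes, by cell class. Each point is 1 library (blue, Smc3 wt/wt; red, Smc3 wt/-; circle, square and triangle, replicates 1, 2 and 3), and the right panel leaves out classes with under 10 Igkv UMIs in a library. Smc3 wt/- replicate 2 stands above the others in every class, but in plasma-lineage cells on the right only by a small step, with 1.93 against 0.810 to 1.76, and for T cell-like and myeloid-like cells it is the only library shown on the right.

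Relative to Igkc, the constant exon of the same mRNA, the order of the classes turned. GC B-like cells had 7.94, 3.11 and 2.17 Igkv UMIs per 1000 Igkc UMIs in Smc3 wt/wt, against 2.25, 25.2 and 2.20 in Smc3 wt/-. Plasma-lineage cells had 1.71, 1.31 and 0.810 in Smc3 wt/wt, against 1.09, 1.93 and 1.76 in Smc3 wt/-. The ratio was thus lower in plasma-lineage than in GC B-like cells in each library. Across libraries, the plasma-lineage ratio of Smc3 wt/- replicate 2 was the highest of the 6 by a small step, while its GC B-like ratio was at least 3 times that of any other. Smc3 wt/wt replicate 1, the library with the fewest cells, had the second highest GC B-like ratio. Between the states of the GC, light zone-like cells had a lower ratio than S phase-like cells in 5 libraries, by 2.92 against 3.20, 1.17 against 2.21, 2.33 against 2.42, 16.2 against 25.3 and 1.92 against 2.20, and a higher one in Smc3 wt/wt replicate 1, by 7.97 against 7.80. Outside Smc3 wt/- replicate 2 the light zone-like values rest on 17 to 55 Igkv UMIs per library, and the difference was not tested.

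T cell-like and myeloid-like cells make no kappa chain and show how many Igkv UMIs a barcode holds without one. In Smc3 wt/- replicate 2, 506 of 726 such cells had an Igkv UMI, or 69.7% (exact 95% interval 66.2% to 73.0%, counting error only). In the other libraries the share was 1% to 9.20%. GC B-like cells had an Igkv UMI in 29.5%, 18.9% and 15.6% of cells in Smc3 wt/wt, against 11.9%, 88.5% and 14.3% in Smc3 wt/-. GC B-like cells are deeper, with medians of 4357 to 7255 UMIs against 1189 to 2657 in T cell-like and myeloid-like cells, so each cell was thinned to 1000 UMIs and shallower cells were left out. At that depth the GC B-like shares were 6.83%, 3.08% and 2.13% in Smc3 wt/wt, against 2.06%, 40.8% and 2.10% in Smc3 wt/-. The shares of T cell-like and myeloid-like cells were 5.58%, 2.16% and 0.833% in Smc3 wt/wt, against 1.16%, 41.5% and 0.730% in Smc3 wt/-. In Smc3 wt/- replicate 2 the GC B-like share did not exceed that of cells that should lack the RNA. Igkv RNA made by its GC B-like cells could thus not be told apart from background. In the other 5 libraries the GC B-like share was the higher one, on 61 to 113 T cell-like and myeloid-like cells of sufficient depth each. Before thinning, only 8, 4 and 1 such cells had an Igkv UMI in Smc3 wt/wt, and 1 and 2 in Smc3 wt/- replicates 1 and 3. These differences thus rest on few cells and were not tested. The thinned shares of plasma-lineage cells were 12.9% to 23.0% in those 5 libraries and 53.6% in Smc3 wt/- replicate 2, above both other classes in every library.

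Whether the Igkv UMIs of 1 cell name the same segment was then measured as the chance that 2 different Igkv UMIs of a cell come from 1 segment, averaged over cells with at least 3 of them. A cell with 1 kappa chain and no other Igkv RNA gives 100%, and a random draw from the UMIs of the class gives the match between cells, which was 2.40% to 4.402% in GC B-like cells. In GC B-like cells the within-cell match was 9.52% (7 cells), 57.8% (15 cells) and 55.5% (17 cells) in Smc3 wt/wt. In Smc3 wt/- it was 100% (1 cell), 4.04% (199 cells) and 63.6% (11 cells). The match was thus over 50% in 4 libraries, on 1 to 17 cells each, and low in Smc3 wt/- replicate 2 and Smc3 wt/wt replicate 1. It depended on the minimum: with cells of at least 2 Igkv UMIs, a limit chosen after seeing the data, it was 9.91% (37 cells), 29.7% (110 cells) and 32.6% (81 cells) in Smc3 wt/wt, against 20.8% (24 cells), 4.53% (266 cells) and 47.7% (65 cells) in Smc3 wt/-. All 6 values were then under 50%, with Smc3 wt/- replicate 2 the lowest. The 4.04% of Smc3 wt/- replicate 2 lay beside 3.99% in its naive or memory B-like cells (158 cells), 3.41% in its T cell-like and myeloid-like cells (151 cells) and a match of 2.90% between its GC B-like cells. Plasma-lineage cells had 59.5% (12 cells), 64.1% (33 cells) and 70.6% (27 cells) in Smc3 wt/wt, against 87.4% (10 cells), 26.7% (1650 cells) and 67.1% (35 cells) in Smc3 wt/-.

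**Figure D2:**
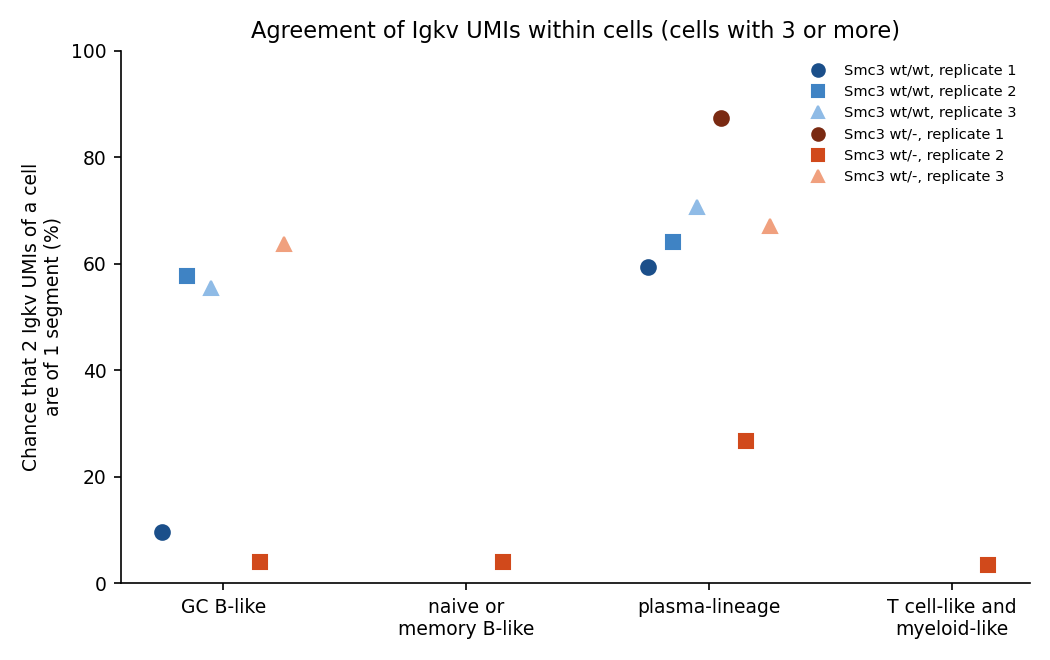
Within-cell match (percent, linear axis from 0) by cell class, 1 point per library with at least 7 cells that hold 3 or more Igkv UMIs. In plasma-lineage cells 5 libraries lie between 59.5% and 87.4% and Smc3 wt/- replicate 2 at 26.7%, and in the other classes that library lies between 3.41% and 4.04%.

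No difference in this match between the genotypes was detected. In plasma-lineage cells it was 64.7% ± 5.605 in Smc3 wt/wt, against 60.4% ± 30.9 in Smc3 wt/- (SD, n = 3 each, exact two-sided permutation test, p = 0.9). In GC B-like cells it was 40.9% ± 27.2 against 55.9% ± 48.4 (SD, n = 3 each, exact permutation test, p = 0.6). Single libraries set both directions: the plasma-lineage difference of -4.32 percentage points turned to 12.5 without Smc3 wt/- replicate 2, and the GC B-like difference of 14.96 turned to -7.09 without Smc3 wt/- replicate 1 and to -0.740 without Smc3 wt/wt replicate 1, and was 40.9 without Smc3 wt/- replicate 2. With 3 against 3 libraries the smallest p such a test can give is 0.1, so none could pass 0.05, and the labels do not name the mouse behind each library, so p measures the spread between these libraries, which may be technical. A p that misses the threshold does not show that the genotypes are alike.

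The low match of the plasma-lineage cells of Smc3 wt/- replicate 2 was examined cell by cell. Of its 1650 cells with 3 or more Igkv UMIs, 702 had 1 segment with over 50% of them. The leading segment had a median of 5 UMIs and the second a median of 1. The match rose with the number of Igkv UMIs, from 18.9% in cells with 3 to 5, through 21.1% with 6 to 9, 25.01% with 10 to 14 and 31.8% with 15 to 24, to 53.9% in the 128 cells with 25 or more. The UMIs outside the leading segment rose as well, from a mean of 2.25 to 4.17, 6.11, 8.29 and 9.65. In the 5 other libraries that mean was 0.5 to 1.79. Most of these cells belonged to a cluster led by Prg2 and Jchain, where Smc3 wt/- replicate 2 had a match of 27.6%, and a second cluster, led by the chaperone Hsp90b1, gave 21.7%. In the other libraries the first gave 64.2% to 90.2% and the second, in 4 of them, 47.8% to 86.8%, on 5 to 23 cells each. Another cluster, led by Jchain, Prg2 and haemoglobin genes, was almost all from Smc3 wt/- replicate 2 and gave 28.4%.

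Plasma-lineage cells that use lambda light chains give a second reference within the same class, since a cell with a lambda chain normally carries no functional kappa mRNA. Cells with more Iglc than Igkc UMIs numbered 77 in Smc3 wt/- replicate 2, or 4.42% of its plasma-lineage cells. They held a median of 5 Igkv UMIs with a match of 8.84% over 66 cells. The 1667 cells with more Igkc held a median of 10 with a match of 27.5%. The mean number of UMIs outside the leading segment was 4.62 in the first and 5.73 in the second. In the other libraries 1 to 6 plasma-lineage cells had more Iglc, and they held 0 to 2 Igkv UMIs in all.

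Heavy chain class was similar across the 10 leading segments of the plasma-lineage cells of Smc3 wt/- replicate 2, a description that was not tested. Igha, the constant gene of IgA, was the leading heavy chain gene in 93.9% of the 1744 plasma-lineage cells of Smc3 wt/- replicate 2, and in 90.6% to 100% of the cells assigned to each of its 10 leading segments. Igkv10-96, with 61 assigned cells there, had 59 with Igha.

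In GC B-like cells no segment dominated. Leaving out Smc3 wt/- replicate 2, the other 5 libraries held 2298 GC B-like Igkv UMIs. At equal depth, the share of T cell-like and myeloid-like cells with an Igkv UMI, 0.730% to 5.58%, was below that of GC B-like cells, 2.06% to 6.83%, in each of them, by the smallest ratio in Smc3 wt/wt replicate 1, where the within-cell match was 9.52%. The former share rests on 1 to 8 cells with an Igkv UMI per library. The part of such background UMIs in the shares and effective numbers of GC B-like cells was not tested. Igkv1-135 took 7.96% of them, Igkv1-117 6.66%, Igkv12-44 5.57%, Igkv6-15 4.57% and Igkv1-110 4.44%, together 29.2%. Igkv4-90, Igkv4-53, Igkv4-58 and Igkv7-33 had none, and 0 of 2298 allows a share of up to 0.131%. The first in order varied by library: Igkv1-135 led in Smc3 wt/wt replicate 1 with 11.3%, in Smc3 wt/wt replicate 3 with 8.91% and in Smc3 wt/- replicate 3 with 9.96%. Igkv12-44 led in Smc3 wt/wt replicate 2 with 7.46% and Igkv1-117 led in Smc3 wt/- replicate 1 with 7.11%. Among the UMIs of Smc3 wt/- replicate 2, which could not be told apart from background, Igkv12-44 was first with 6.68%. The exact 95% intervals of these leading shares ran from 4.12% to 16.0%, so the order among the first segments is not resolved at this depth.

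The spread of single segments across libraries differed, but it includes counting error, which was not separated. In Smc3 wt/- replicate 2 the shares are of UMIs that could not be told apart from background. Igkv6-15 had 5.86%, 4.13% and 3.74% of GC B-like Igkv UMIs in Smc3 wt/wt, against 4%, 4.26% and 5.75% in Smc3 wt/-, a narrow range that included Smc3 wt/- replicate 2. Igkv1-135 had 11.3%, 6.52% and 8.91% in Smc3 wt/wt, against 2.22%, 6.60% and 9.96% in Smc3 wt/-, with its low value in Smc3 wt/- replicate 1, on 5 of 225 UMIs. Igkv1-117 had 9.62%, 5.59% and 5.88% in Smc3 wt/wt, against 7.11%, 1.61% and 7.47% in Smc3 wt/-, with its low value in Smc3 wt/- replicate 2. Igkv10-96, first among the assigned cells, had only 1.67%, 1.997% and 2.67% in Smc3 wt/wt, against 3.11%, 4.99% and 2.49% in Smc3 wt/-.

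Pairs of the 5 libraries without Smc3 wt/- replicate 2 had Pearson's r of 0.50 to 0.89 between their GC B-like shares over the 87 segments. The pooled shares of those 5 had r = 0.65 and Spearman's rho = 0.39 with the GC B-like shares of Smc3 wt/- replicate 2. Within Smc3 wt/- replicate 2, the GC B-like shares followed those of its T cell-like and myeloid-like cells with r = 0.79 and rho = 0.90, and naive or memory B-like cells gave r = 0.78 and rho = 0.88. Its assigned plasma-lineage cells followed the same T cell-like and myeloid-like shares with r = 0.67 and rho = 0.78. One T cell-like or myeloid-like barcode with 84 UMIs of Igkv4-58 held most of the 91 UMIs of that segment in the class. These are descriptions over segments of 1 locus, which share library and depth, and carry no p.

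Plasma-lineage cells hold many UMIs each, so 1 cell could set which segment led. In Smc3 wt/wt replicate 1, Igkv1-110 had 35.5% of plasma-lineage Igkv UMIs, and 45 of its 50 UMIs came from 1 cell, without which it had 5.26%. The pseudogene Igkv3-11 had 33.0% in Smc3 wt/- replicate 1, with 32 UMIs in 1 cell and 1.49% without it. Igkv6-13 had 13.2% in Smc3 wt/- replicate 3, with 39 of 43 UMIs in 1 cell and 1.42% without it. In Smc3 wt/- replicate 2, Igkv17-121 led with 6.72%, and 744 of its 1501 UMIs came from 1 cell, without which it had 3.51%. In the first 3 of these libraries 1 cell held most UMIs of the leading segment, while in Smc3 wt/- replicate 2 it held under 50% of them. Igkv1-135 had 8.90% in Smc3 wt/wt replicate 2, tied with Igkv3-1, and 9.63% in Smc3 wt/wt replicate 3, where its largest cell held 9 and 10 UMIs.

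Igkv17-121 and Igkv3-11, which led in Smc3 wt/- replicates 2 and 1, are shown from the same end of the germline transcript, with capitals from the cysteine codon. Igkv3-11 is annotated as a pseudogene, and 81.0% of its 50-base windows are shared with other Igkv features, so its UMIs may belong to a near copy. Igkv17-121 was 97.5% identical to Igkv17-127.

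Igkv17-121 (chr6:68036812-68037318, plus strand): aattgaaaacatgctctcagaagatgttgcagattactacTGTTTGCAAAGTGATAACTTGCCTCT
Igkv3-11 (chr6:70553239-70553862, plus strand): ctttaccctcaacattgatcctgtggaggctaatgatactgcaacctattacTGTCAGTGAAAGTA

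Each assigned cell was also counted once, which leaves out how many UMIs a cell held. In Smc3 wt/- replicate 2, 71 of the 87 members had at least 1 of the 702 assigned plasma-lineage cells. Igkv10-96 had 61 of them, or 8.69%, Igkv12-46 and Igkv6-15 had 36 each, or 5.13%, Igkv14-111 had 32, Igkv1-110 and Igkv6-23 had 28 each, and Igkv17-121 had 7. The other libraries had 8, 26 and 21 assigned plasma-lineage cells in Smc3 wt/wt, against 10 and 29 in Smc3 wt/- replicates 1 and 3, too few to order segments. Igkv1-135 had 1, 2 and 3 assigned plasma-lineage cells in Smc3 wt/wt, against 1, 16 and 3 in Smc3 wt/-.

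**Figure D3:**
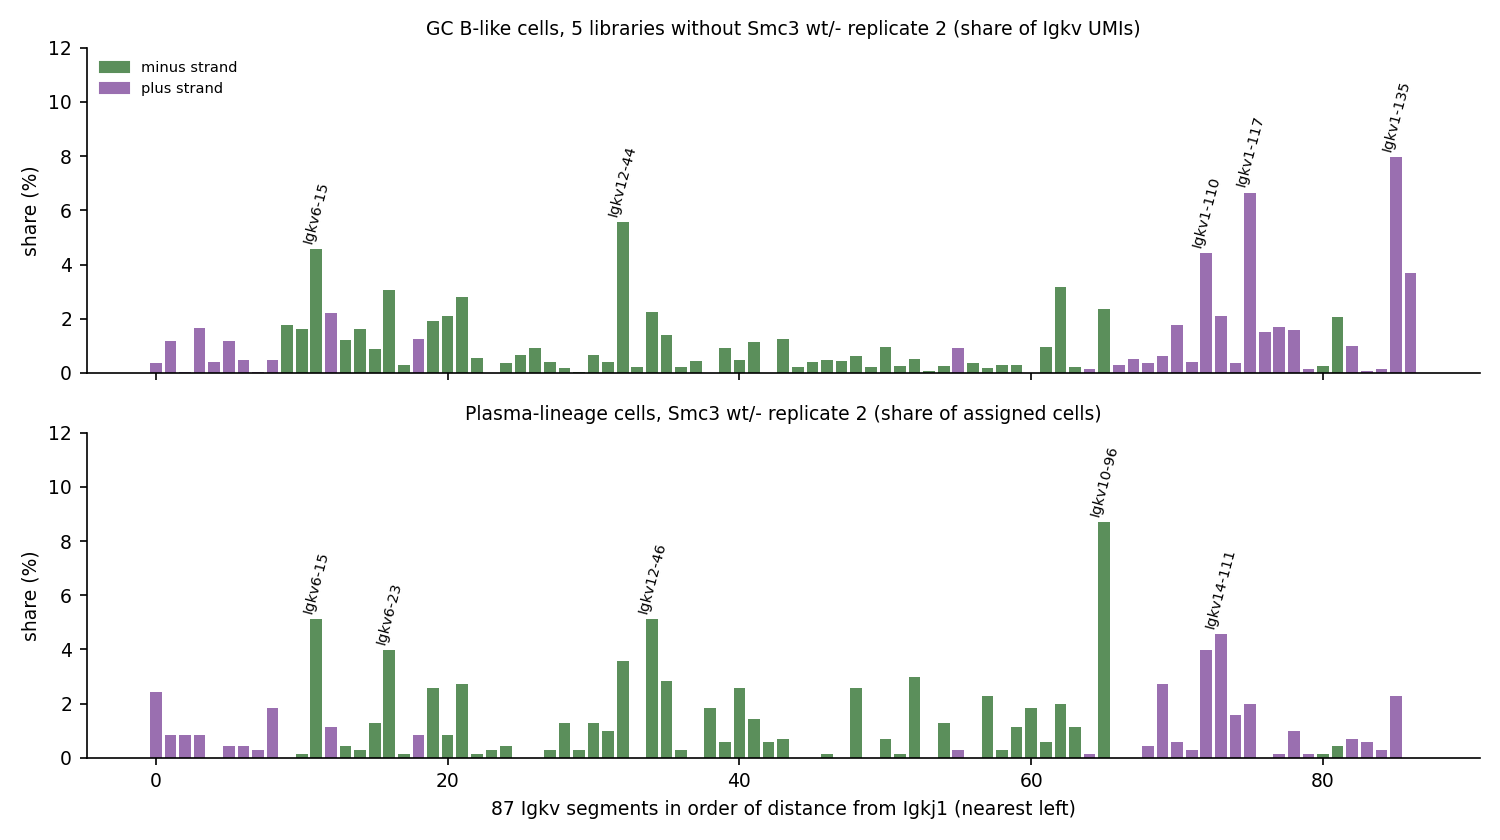
Share (percent) of each of the 87 segments, ordered by distance from Igkj1 with the nearest on the left: of Igkv UMIs in GC B-like cells of the 5 libraries without Smc3 wt/- replicate 2 (top) and of assigned plasma-lineage cells of Smc3 wt/- replicate 2 (bottom). Green bars are minus-strand and purple bars plus-strand segments, the 5 highest of each panel are named, and the highest is Igkv1-135 with 7.96% above and Igkv10-96 with 8.69% below.

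The evenness of usage was summarised as the effective number of segments, 1 over the chance that 2 Igkv UMIs of the class share a segment, which would be 87 if all were used alike. GC B-like cells had 22.7, 35.6 and 31.6 in Smc3 wt/wt, against 41.7, 34.5 and 30.3 in Smc3 wt/-. The groups overlapped, with 29.97 ± 6.60 against 35.5 ± 5.73 (SD, n = 3 each, exact permutation test, p = 0.5). The difference was 6.01 without Smc3 wt/- replicate 2, and 1.896 without Smc3 wt/wt replicate 1 to 8.35 without Smc3 wt/wt replicate 2. The share of the leading segment was 9.22% ± 1.94 against 7.92% ± 1.78 (SD, n = 3 each, exact permutation test, p = 0.5), and its difference of -1.31 percentage points was -0.686 without Smc3 wt/- replicate 2 and between -2.33 and -0.268 over the 6 fits that leave out 1 library each. Plasma-lineage cells had 6.16, 24.6 and 19.1 in Smc3 wt/wt, against 8.18, 36.9 and 18.4 in Smc3 wt/-, or 16.6 ± 9.47 against 21.2 ± 14.5 (SD, n = 3 each, exact permutation test, p = 0.7). Naive or memory B-like cells had 19.5, 29.0 and 27.6 in Smc3 wt/wt, against 42.2, 37.2 and 22.9 in Smc3 wt/-, or 25.3 ± 5.13 against 34.1 ± 10.0 (SD, n = 3 each, exact permutation test, p = 0.3), on 23 to 37 UMIs in each library but Smc3 wt/- replicate 2, without which the difference of 8.75 was 7.20. The plasma-lineage difference turned to -3.32 without Smc3 wt/- replicate 2 and to -0.704 without Smc3 wt/wt replicate 1.

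Plasma-lineage cells had the lower effective number in 5 of 6 libraries, all but Smc3 wt/- replicate 2. In that library the GC B-like value comes from UMIs that could not be told apart from background, so it gives no contrast of usage between these classes. The log2 ratio of plasma-lineage to GC B-like cells was -1.88, -0.53 and -0.72 in Smc3 wt/wt, against -2.35, 0.09 and -0.72 in Smc3 wt/-, with a mean of -1.02 (exact two-sided sign-flip permutation test over 6 libraries, p = 0.0625, where the smallest p is 0.03125). Without Smc3 wt/- replicate 2 the mean log2 ratio was -1.24. The direction rested on the weight of cells with many UMIs. With every cell that holds an Igkv UMI weighted equally, plasma-lineage cells had 23.97, 34.5 and 30.2 in Smc3 wt/wt, against 45.0, 40.5 and 44.2 in Smc3 wt/-, and the mean log2 ratio was 0.16 (exact sign-flip permutation test, p = 0.1875). Under this weighting, chosen after seeing the data, the plasma-lineage values of the genotypes did not overlap, with means of 29.6 in Smc3 wt/wt and 43.3 in Smc3 wt/- (exact two-sided permutation test, n = 3 each, p = 0.1, the smallest it can give). They rest on 23, 56 and 56 cells with an Igkv UMI in Smc3 wt/wt, and on 31 and 59 in Smc3 wt/- replicates 1 and 3. In Smc3 wt/- replicate 2, where the within-cell match was 26.7%, the weight of a cell is spread over several segments.

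**Figure D4:**
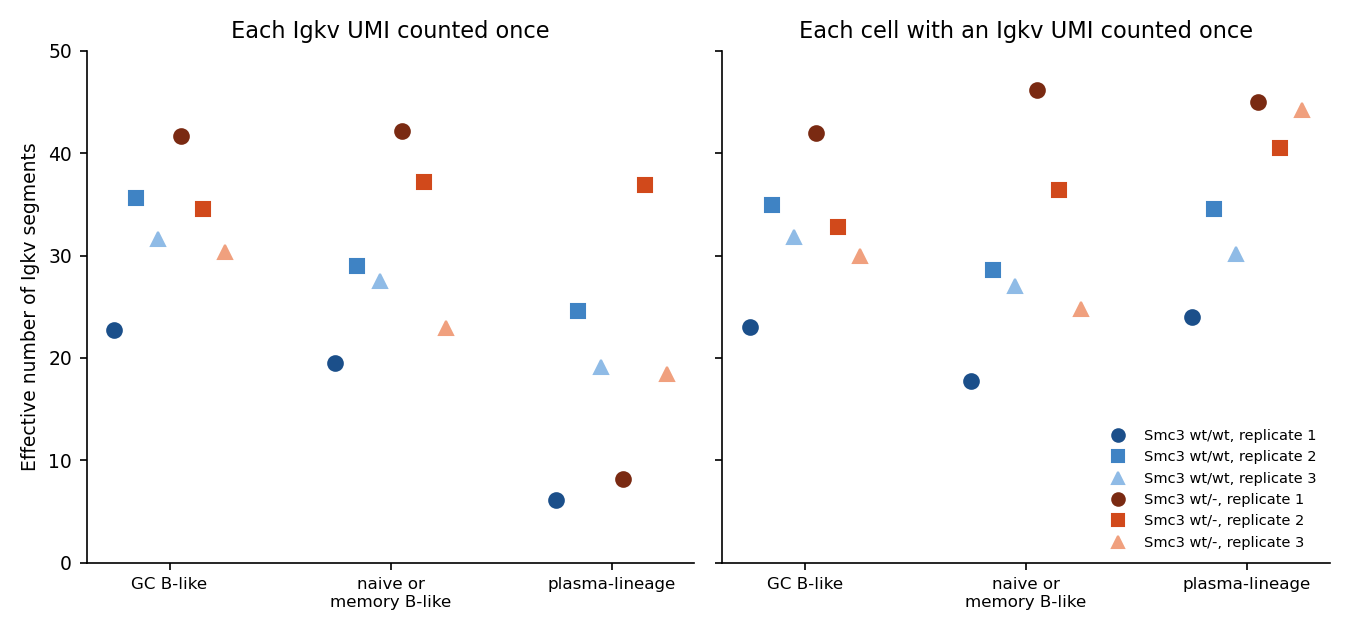
Effective number of Igkv segments by cell class, with each Igkv UMI counted once (left) and each cell with an Igkv UMI counted once (right), 1 point per library. On the left, plasma-lineage values of Smc3 wt/wt replicate 1 and Smc3 wt/- replicate 1 are 6.16 and 8.18, and on the right they are 23.97 and 45.0.

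Along the locus, the members were divided into 29 near (18.4 to 821.6 kb from Igkj1), 29 middle (853.4 to 1811.6 kb) and 29 far segments (1859.5 to 3166.3 kb). In GC B-like cells the near segments had 35.1%, 32.4% and 35.5% of Igkv UMIs in Smc3 wt/wt, against 34.7%, 26.5% and 34.5% in Smc3 wt/-. The far segments had 35.98%, 44.5% and 49.2% in Smc3 wt/wt, against 41.3%, 33.1% and 47.1% in Smc3 wt/-. The middle segments had 28.9%, 23.2% and 15.3% in Smc3 wt/wt, against 24%, 40.4% and 18.4% in Smc3 wt/-. The highest share was in Smc3 wt/- replicate 2, whose GC B-like Igkv UMIs could not be told apart from background. The minus-strand segments, which include 28 of the 29 middle ones, had 59.4%, 54.6% and 51.0% in Smc3 wt/wt, against 59.1%, 68.4% and 53.4% in Smc3 wt/-. Between the genotypes the minus-strand share was 55.0% ± 4.23 against 60.3% ± 7.54 (SD, n = 3 each, exact permutation test, p = 0.5), and the difference of 5.32 percentage points was 1.28 without Smc3 wt/- replicate 2.

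By family, no family of the 18 separated the genotypes in GC B-like cells, and the adjusted p over the 18 exact permutation tests was 0.96 or more. With 1 library left out, 0 to 4 families separated them, and 2 did so without Smc3 wt/- replicate 2. Family 1, which holds Igkv1-135, Igkv1-117 and Igkv1-110, had 25.1%, 18.9% and 23.0% in Smc3 wt/wt, against 14.2%, 12.7% and 22.03% in Smc3 wt/-. Family 4, the largest with 22 members, had 13.0%, 11.6% and 6.42% in Smc3 wt/wt, against 15.6%, 22.7% and 7.85% in Smc3 wt/-. Both families overlapped between the genotypes through Smc3 wt/- replicate 3. Family 9 had 0.837%, 4.79% and 7.13% in Smc3 wt/wt, against 8.89%, 0.241% and 5.56% in Smc3 wt/-, with its lowest value in Smc3 wt/- replicate 2.

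Since Smc3 wt/- replicate 2 stood apart, its segment shares were set against those of the other 5 libraries over all kept cells. This library was picked for standing apart, and the comparison is a description with no test. Its share lay above the other 5 libraries for 25 members, below them for 11 and within their range for 51. The choice of members partly sets these counts, since this library held 86.6% of member UMIs and a segment could reach the threshold through it alone. Igkv8-26, with 0 UMIs there and 15 in all, stayed outside. A member with a share of 0 in any other library could not lie below. Family 4 gave 9 of the 25 and 2 of the 11. Igkv4-90 had 399 UMIs in 229 cells of Smc3 wt/- replicate 2, or 1.53% of its Igkv UMIs, and 0 of 4007 in the others, which allows a share of up to 0.0749%. The share of 1.53% is 20.4 times this limit, with its own counting error left out. Igkv3-3 had 311 UMIs, or 1.19%, against 1 in the others, and Igkv4-53 had 462, or 1.77%, against 3. The reverse held for Igkv9-119, with 1 UMI in Smc3 wt/- replicate 2 and 45 in 45 cells of the others, where it had 0.690% to 1.82% per library. Igkv6-13 had 0.0689% against 0.781% to 5.56%, and Igkv2-137, the segment farthest from Igkj1, had 0.310% against 1.61% to 3.84%.

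Igkv4-90 was spread over classes of that library, with 335 UMIs in plasma-lineage, 23 in GC B-like, 13 in naive or memory B-like and 26 in T cell-like and myeloid-like cells, and it had 13 assigned plasma-lineage cells. Igkv9-119 was spread over cells as well, with 2, 10 and 10 UMIs in GC B-like cells of Smc3 wt/wt and 5, 0 and 8 in those of Smc3 wt/-. No cell held more than 1 of them. The germline ends of both are shown because they mark the extremes of that comparison. Igkv4-90 shared no 50-base window with another Igkv feature, and Igkv9-119, annotated as a pseudogene, shared 3 of 304.

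Igkv4-90 (chr6:68807179-68807708, minus strand): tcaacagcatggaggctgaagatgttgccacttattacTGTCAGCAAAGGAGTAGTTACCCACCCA
Igkv9-119 (chr6:68056345-68056810, plus strand): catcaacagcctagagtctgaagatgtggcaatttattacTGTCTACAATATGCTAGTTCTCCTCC

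**Figure D5:**
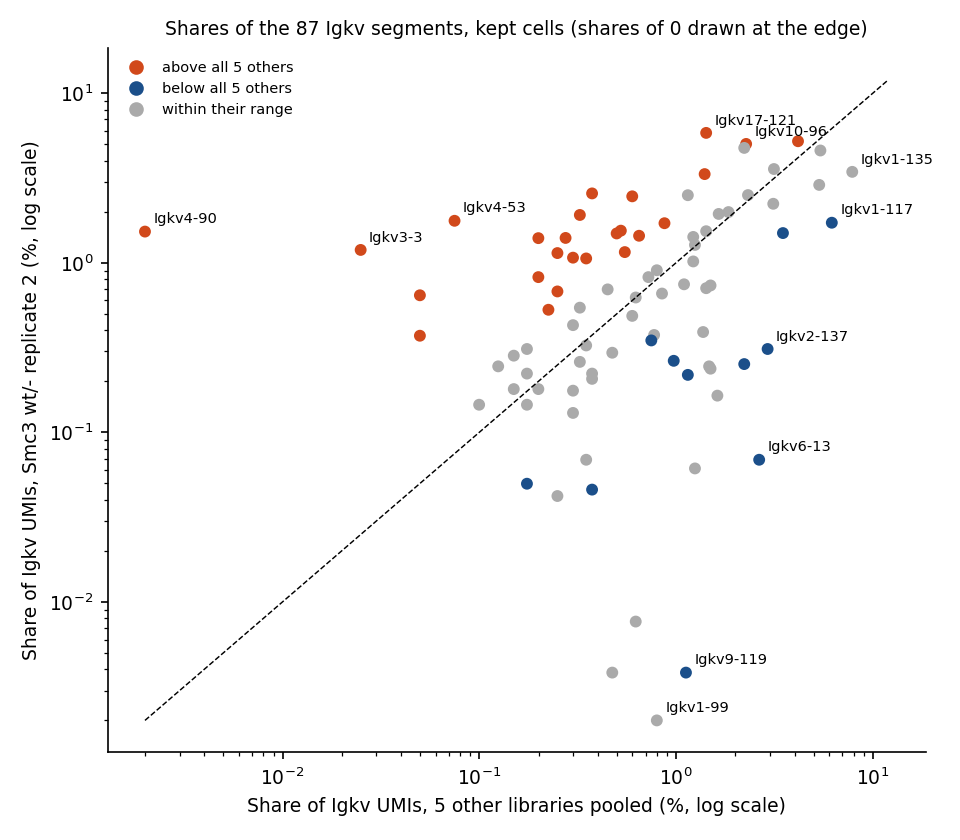
Share of each segment among Igkv UMIs of kept cells (percent, log axes) in the 5 other libraries pooled (x) and in Smc3 wt/- replicate 2 (y), 1 point per segment, with the line of equal shares dashed. Red points, 25 segments, lie above every other library, blue points, 11 segments, lie below, and Igkv4-90 sits at the left edge with a share of 0 in the others. These counts are partly set by the choice of members, since a segment could reach the UMI threshold through Smc3 wt/- replicate 2 alone.

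Whether single segments differed between the genotypes was tested with edgeR's quasi-likelihood test on UMIs summed per library, fitted over all features with Benjamini-Hochberg adjustment. Over all kept cells, 40 of the 87 members passed the low-count filter and 0 were called, where 0% of the 11841 features tested were called. At an unadjusted p under 0.05 there were 7 of the 40, beside 1.45% of all features. This count turned on single libraries: it was 30 of 50 without Smc3 wt/- replicate 1 and 28 of 50 without Smc3 wt/- replicate 3, where 602 of 12133 and 902 of 12208 features had such a p. It was 1 of 41, lower in Smc3 wt/-, without Smc3 wt/- replicate 2, and 0 of 46, 1 of 50 and 0 of 51 without Smc3 wt/wt replicates 1, 2 and 3, beside 316 of 12042, 81 of 12013, 40 of 12206 and 40 of 12187 features in these 4 fits. The libraries of the genotypes did not overlap for 2 of the 40, both higher in Smc3 wt/-, beside 4.04% of all features higher and 4.05% lower. The number of members that passed the filter is no measure of a change, and the part of Smc3 wt/- replicate 2 in it was not tested. Of the 40, 39 had a positive log2 fold change, with a median of 3.79 against 0.00 for all features, and without Smc3 wt/- replicate 2 the median of the members was -0.30.

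In GC B-like cells 17 members were tested and 0 were called, where 0% of all 10871 features were called. At an unadjusted p under 0.05 there were 0 of 17, beside 1.55% of all features, and over the fits that leave out 1 library 0 to 5, with 3 of 26, all lower in Smc3 wt/-, without Smc3 wt/- replicate 2 (392 of 11366 features) and 5 of 36 without Smc3 wt/- replicate 1 (292 of 11487 features). The median log2 fold change of the 17 was 1.97, and -0.52 without Smc3 wt/- replicate 2. The libraries did not overlap for 2 members, both higher in Smc3 wt/-, beside 4.37% of all features higher and 4.66% lower. Igkv8-28 had 0.254, 0.445 and 0.418 CPM in Smc3 wt/wt, against 0.740, 5.05 and 0.660 CPM in Smc3 wt/-, and its log2 fold change was 1.74 with an SE of 0.86 (edgeR quasi-likelihood test, adjusted p = 1), with Smc3 wt/- replicate 2 well above the rest. Igkv9-124 had 0, 0.364 and 0.532 CPM in Smc3 wt/wt, against 0.740, 0.919 and 0.619 CPM in Smc3 wt/-, and its log2 fold change was 0.83 with an SE of 0.57 (edgeR quasi-likelihood test, adjusted p = 1). CPM here is scaled by the TMM factors of the fit.

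Igkv8-28 (chr6:70143593-70144166, minus strand): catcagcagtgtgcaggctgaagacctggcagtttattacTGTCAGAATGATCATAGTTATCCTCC
Igkv9-124 (chr6:67942074-67942540, minus strand): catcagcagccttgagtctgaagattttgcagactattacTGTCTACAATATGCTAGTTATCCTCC

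In naive or memory B-like cells no member passed the filter, and 0% of 6973 features were called. In plasma-lineage cells 7 members were tested, 0 were called (0% of 5945 features) and 0 had an unadjusted p under 0.05, beside 3.78% of all features. Over the fits that leave out 1 library there were 1 to 9, with 9 of 15 without Smc3 wt/- replicate 1 (744 of 6243 features) and 2 of 9, both lower in Smc3 wt/-, without Smc3 wt/- replicate 2 (277 of 6422 features). Their median log2 fold change was 0.99, and -0.83 without Smc3 wt/- replicate 2. Igkv10-96 had 8.58, 8.06 and 3.25 CPM in Smc3 wt/wt, against 0.939, 134.4 and 2.16 CPM in Smc3 wt/-, and its log2 fold change was 3.03 with an SE of 1.57 (edgeR quasi-likelihood test, adjusted p = 0.835). Its levels in Smc3 wt/- replicates 1 and 3 lay below all 3 Smc3 wt/wt libraries, and the positive fold change came with Smc3 wt/- replicate 2. DESeq2 called 0 members in each class, beside 0 of 18109 features in all kept cells and 1 of 16976 in GC B-like cells. In plasma-lineage cells it called 0 of 14577 features and in naive or memory B-like cells 0 of 13615. At an unadjusted DESeq2 p under 0.05 there were 11 of 32 members in all kept cells (2.78% of all features), 28 of 86 in GC B-like cells (2.34%), 8 of 58 in plasma-lineage cells (1.37%) and 5 of 74 in naive or memory B-like cells (0.382%), all of them higher in Smc3 wt/-. In the 5 libraries without Smc3 wt/- replicate 2, a fit added after seeing the data, 4 of 83 members of GC B-like cells had such a p, all 4 lower in Smc3 wt/-, beside 1.14% of all features. The same fit gave 3 of 86 members in all kept cells, all 3 lower, 3 of 78 in plasma-lineage cells, 2 of them lower, and 0 of 48 in naive or memory B-like cells, where 181 of 17801, 70 of 12688 and 33 of 12969 features had such a p. The share of Igkv UMIs did not separate the genotypes either, with p = 0.9 in GC B-like cells and 0.7 in each of the plasma-lineage and the naive or memory B-like cells (exact permutation tests, n = 3 each). Without Smc3 wt/- replicate 2 the difference between Smc3 wt/- and Smc3 wt/wt turned to -0.00183, -0.00353 and -0.00123 percentage points in these classes. Numbers of cells of a class and RNA per cell enter these sums together. The part of plasma-lineage content, free RNA and library in the higher Igkv level of Smc3 wt/- replicate 2 was not tested.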

How the data were processed

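The authors prepared 10x Chromium 3′ v2 libraries and made 1 matrix per library with Cell Ranger 3.0.2 (mm10 per the labels), and the deposited values are raw UMI counts per feature and cell barcode. How reads that fit several segments were treated is not given in the sources used here.

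Barcodes with at least 500 genes and at most 10% mitochondrial UMIs were kept, and doublets were removed by Scrublet score (scanpy 1.11.5) at 0.8% per 1000 barcodes. Cells were clustered in Seurat 5.3.0 (R 4.3.3) by reciprocal PCA on 1893 variable genes without immunoglobulin, mitochondrial and ribosomal protein genes, at a resolution of 0.5. Clusters were named from marker lists where at least 2 of the 10 leading genes and 3 detected markers matched, a rule written after the clusters were seen, and such rebuilt names can differ from those the study used. Names outside the B lineage also needed Cd79a at most 20% of its median. Clusters of 3699, 61 and 53 cells, led by haemoglobin genes, Cst3 and Ifit3, stayed unnamed.

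UMIs summed per library were tested with edgeR 4.0.16 (TMM, filterByExpr, no covariate), which on simulated counts recovered 100% of 200 4-fold changes in GC B-like and 99.5% of 192 in plasma-lineage cells, with 5 and 8 false calls at an adjusted p of 0.05. The simulated counts had 1 low spread for all genes and no outlying library, and the changed genes were not sparse. They do not show that a change of this size in Igkv members would be found. Single values were compared by exact permutation tests over libraries. Usage was planned over assigned cells, but every library had under 20 of them in GC B-like and in naive or memory B-like cells. In plasma-lineage cells Smc3 wt/wt replicate 1 had 8 and Smc3 wt/- replicate 1 had 10. Shares of Igkv UMIs were therefore used. Named segments were the 10 with the most assigned cells, those leading a library and class, up to 3 each way not overlapping between genotypes in GC B-like cells, and those beside the threshold. Igkv4-90, Igkv3-3, Igkv4-53, Igkv9-119, Igkv6-13, Igkv2-137, Igkv17-121, Igkv3-11, Igkv3-1, Igkv4-58 and Igkv7-33 were chosen after their values were seen. The members, lists and tests were chosen with earlier results of these data known. Alternatives were DESeq2 1.42.0, no low-count filter, looser cell filters, doublets kept, a resolution of 1, other weights and UMI minimums, a replicate block, and each library left out in turn.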

Additional observations from a re-analysis of the deposited data

How the results depend on the processing

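Of 227 alternatives run, 208 kept the direction or the count of their result, 13 reversed a direction and 6 moved a count. An exact test of 3 against 3 libraries cannot give a p under 0.1, so that none passed a threshold says nothing of stability. The lowest p of an exact test was 0.0625, and 64 genotype fits called 0 members. These fits called few or no features of any kind, at most 11 of 7647, with DESeq2 in GC B-like cells without Smc3 wt/- replicate 2. Most reversals came with leaving out 1 library, and the cause was not tested. Over the 6 fits that leave out 1 library each, the difference between Smc3 wt/- and Smc3 wt/wt in the Igkv share of UMIs was -0.00183 to 0.0230 percentage points in GC B-like, -0.00123 to 0.0288 in naive or memory B-like and -0.00353 to 0.0347 in plasma-lineage cells, in each case lowest without Smc3 wt/- replicate 2. In plasma-lineage cells the difference in the effective number was -3.32 to 11.02, in the share of the leading segment -8.04 to 8.37 percentage points and in the within-cell match -17.8 to 12.5 percentage points. The difference in the match of GC B-like cells was -7.09 to 40.9 percentage points, and 0 to 4 families did not overlap between the genotypes. Igkv8-28 ranged from 0.73 to 2.36 and Igkv9-124 from 0.64 to 0.82 in log2 fold change where they could be fitted. The difference in the leading share of plasma-lineage cells was -0.36 percentage points and reversed to 0.73 with the looser cell filter. With cells weighted equally, the mean log2 ratio of effective numbers between plasma-lineage and GC B-like cells reversed to 0.16, and 1 family did not overlap. That weighting, DESeq2 without Smc3 wt/- replicate 2, the minimum of 2 UMIs per cell and the scale per 1000 Igkc UMIs were chosen after seeing the data.

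Replicate numbers are shared between the genotypes, and the correlation of same-numbered deviations was over 0.1 for every pair only in naive or memory B-like cells (0.301, 0.201 and 0.135). With the replicate block, 0 members were called in each class, as without it. It called 0 of 12281 features in all kept cells, 0 of 11137 in GC B-like, 0 of 7450 in naive or memory B-like and 0 of 6444 in plasma-lineage cells. Stricter assignment of cells to segments was not run because too few cells were left in some libraries, a minimum of 5 UMIs per cell gave no GC B-like cell in 2 libraries, and the match of GC B-like minus T cell-like and myeloid-like cells was not run because only Smc3 wt/- replicate 2 had 10 cells in both. Outside that library, 225 to 751 GC B-like and 23 to 37 naive or memory B-like Igkv UMIs limit what can be seen of single segments.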
